A study of Mus musculus with 14 samples.

Results

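The mitochondrial ribosomal proteins are the nuclear-encoded protein subunits of the ribosome inside mitochondria. They were taken here as every gene row whose symbol is Mrpl or Mrps followed by a number and an optional letter. Mrpl names the large subunit and Mrps the small subunit, with exceptions given below. In addition, 5 pseudogene symbols containing -ps were left out. The rule found 78 of the 52550 gene rows, 49 Mrpl and 29 Mrps. By a list set by hand, 47 of the 78 were grouped as having a counterpart in bacterial ribosomes and 31 as specific to mitochondria. Such a list can be drawn otherwise. Here Mrps18a and Mrps18b stand in the bacterial group, and Mrpl55 and Mrps36 in the group specific to mitochondria.

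RNA was measured in the triceps of 14 male mice by QuantSeq FWD sequencing, which reads the 3′ end of each polyadenylated transcript. The 4 groups were WT controls without running (n = 3), WT mice after 6 weeks of voluntary wheel running (n = 4), FLExDUX4 controls without running (n = 3) and FLExDUX4 mice after 6 weeks of voluntary wheel running (n = 4). FLExDUX4 mice are a model of facioscapulohumeral muscular dystrophy and carry a conditional transgene for human DUX4, a transcription factor that is toxic to muscle. The WT mice were littermates. The labels name no Cre driver, inducing agent, background strain or age for any group, and the transgene itself was not analysed here, so the genotype rests on the labels.

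Mitochondrial ribosomes make the few proteins encoded by mitochondrial DNA, all of them subunits of the respiratory chain and ATP synthase. Their RNAs come from mitochondrial DNA, whereas every protein subunit is encoded in the nucleus, made in the cytosol and imported. Endurance training is known to raise mitochondrial content in skeletal muscle, and the study asked what aerobic exercise does to the muscle of this disease model.

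Promoter sequence is shown first, because nuclear respiratory factor 1 (NRF1) and ETS-family factors such as NRF2/GABP are known regulators of nuclear genes for mitochondrial proteins. In the RefSeq promoter table (GRCm38.p6), 69 of the 78 genes had an entry. The ETS core CCGGAAG, read on either strand (CTTCCGG), was found within 250 bases before the start of 18 of the 69 genes (26.1%), against 7.83% of all 27025 genes in the table and 10.2% of its 17491 protein-coding genes. The NRF1 core GCGCATG, read on either strand (CATGCGC), was found in 8 of the 69 (11.6%), against 3.68% of all genes and 4.51% of protein-coding genes. The E-box CACGTG, the same on both strands, was found in 5 of the 69 (7.25%), against 6.86% of all genes and 7.61% of protein-coding genes. The 3 motifs do not contain one another, but matches of the NRF1 core on opposite strands can overlap. They are letter matches and not measured binding. The NRF1 core replaced a longer form after the matches were seen, so its shares are a description and not a test. The genes set beside the members were not matched for base content or expression.

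The windows below run from 120 bases before the start to the base before it, 5′ to 3′ on the gene's strand, with motif matches in capitals. The first 5 belong to the genes with the smallest p-values for running over both genotypes, and Mrpl9 and Mrpl32 show the NRF1 core.
Mrpl34 (GRCm38.p6, chr8:71464806-71464925, plus strand): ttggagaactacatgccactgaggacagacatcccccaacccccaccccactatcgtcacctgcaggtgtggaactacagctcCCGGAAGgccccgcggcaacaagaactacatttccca
Mrpl47 (GRCm38.p6, chr3:32736756-32736875, minus strand): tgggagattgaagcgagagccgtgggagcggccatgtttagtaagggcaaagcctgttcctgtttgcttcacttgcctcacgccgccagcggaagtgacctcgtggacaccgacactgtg
Mrps24 (GRCm38.p6, chr11:5707702-5707821, minus strand): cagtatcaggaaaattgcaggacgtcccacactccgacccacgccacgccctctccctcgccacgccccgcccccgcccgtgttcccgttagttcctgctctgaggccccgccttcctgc
Mrpl45 (GRCm38.p6, chr11:97315596-97315715, plus strand): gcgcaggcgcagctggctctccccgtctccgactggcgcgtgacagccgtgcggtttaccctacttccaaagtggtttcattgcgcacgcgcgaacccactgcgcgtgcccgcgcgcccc
Mrpl43 (GRCm38.p6, chr19:45006443-45006562, minus strand): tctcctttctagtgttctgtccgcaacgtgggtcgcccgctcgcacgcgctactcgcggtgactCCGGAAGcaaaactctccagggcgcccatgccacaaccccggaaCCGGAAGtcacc
Mrpl9 (GRCm38.p6, chr3:94443216-94443335, plus strand): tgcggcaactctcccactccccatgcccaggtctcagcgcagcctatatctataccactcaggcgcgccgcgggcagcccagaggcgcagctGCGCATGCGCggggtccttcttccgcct
Mrpl32 (GRCm38.p6, chr13:14613038-14613157, minus strand): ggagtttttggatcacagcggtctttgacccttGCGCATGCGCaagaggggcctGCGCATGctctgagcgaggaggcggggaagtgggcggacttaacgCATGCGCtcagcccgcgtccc
In Mrpl9 and Mrpl32 the core matched on opposite strands with an overlap, which gives the longer capital run. Mrpl43 carries the ETS core at 2 places in its window and Mrpl34 at 1, whereas the windows of Mrpl47, Mrps24 and Mrpl45 hold none of the 3 motifs in these letters. Near matches were not counted: the Mrpl45 window holds gcgcacg, 1 letter from the NRF1 core, and the Mrpl47 window holds gcggaag, 1 letter from the ETS core.

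The genes lie on 17 chromosomes in GENCODE M21 on GRCm38, 11 of them on chromosome 11. Their median span was 7899.5 bases, against 17403 bases for protein-coding genes. Divergent neighbours were counted as protein-coding genes on the other strand that start within 1000 bases upstream and run away from the gene. Head-to-head pairs with overlapping 5′ ends, such as Mrpl46 and Mrps11, were not counted. A divergent neighbour was present for 18 of the 78 (23.1%), against 1489 of 21951 protein-coding genes (6.78%). The counted pairs include Mrps12 with Sars2, the mitochondrial seryl-tRNA synthetase, and Mrps27 with Ptcd2. Exons of 33 members overlap another gene's exons, 28 of them on the opposite strand and 8 on the same strand. The strand setting of the counting is not given in the sources used here, so reads of such pairs may not be told apart. Among the genes described below this touches Mrpl9, Mrpl10, Mrpl12, Mrpl14, Mrpl18, Mrpl43, Mrpl44, Mrpl47, Mrpl49, Mrpl53, Mrpl58, Mrps6, Mrps11, Mrps18b, Mrps18c, Mrps24, Mrps26, Mrps27, Mrps30 and Mrps34. Mrpl4, Mrpl34, Mrpl45 and Mrps33 have no such overlap.

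Gene counts per mouse, spike-ins left out, ran from 3269357 to 6995811, and 8885 to 19589 of these reads in each mouse fell on the mitochondrial ribosomal protein genes. The filter on low counts left 11088 genes, 76 of them members. Skeletal muscle markers (Ckm, Acta1, Myh4, Tnnt3, Mylpf, Pvalb and Atp2a1) summed to 80079 CPM or more in every mouse. The share of adult myosin heavy chain reads that came from the fast gene Myh4 was 98.6% ± 0.256 (SD) in WT controls, 82.7% ± 11.2 in WT runners, 94.6% ± 1.37 in FLExDUX4 controls and 84.9% ± 10.7 in FLExDUX4 runners. In bulk tissue, fewer cells of a type and less RNA per cell cannot be told apart.

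Levels are given as CPM, the read count scaled to a common effective library size. Because 1 fragment is read per transcript end, CPM does not scale with transcript length and was compared between genes. The median over the 76 tested members was 28.7 CPM, 34.2 for those with Mrpl symbols and 26.0 for those with Mrps symbols. Most members lay in a narrow band: 69 of 78 had a mean between 10 and 100 CPM, 3 had 100 CPM or more and 6 were below 10 CPM. The highest were Mrpl42 at 169 CPM, Mrpl30 at 117 CPM, Mrpl14 at 106 CPM, Mrpl18 at 92.4 CPM and Mrpl34 at 83.7 CPM, and these 5 gave 20.3% of the members' summed CPM. The lowest tested members were Mrpl23 at 1.89 CPM, Mrps36 at 2.53 CPM, Mrps33 at 7.52 CPM, Mrps10 at 7.74 CPM and Mrps11 at 10.9 CPM.

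**Figure D1:**
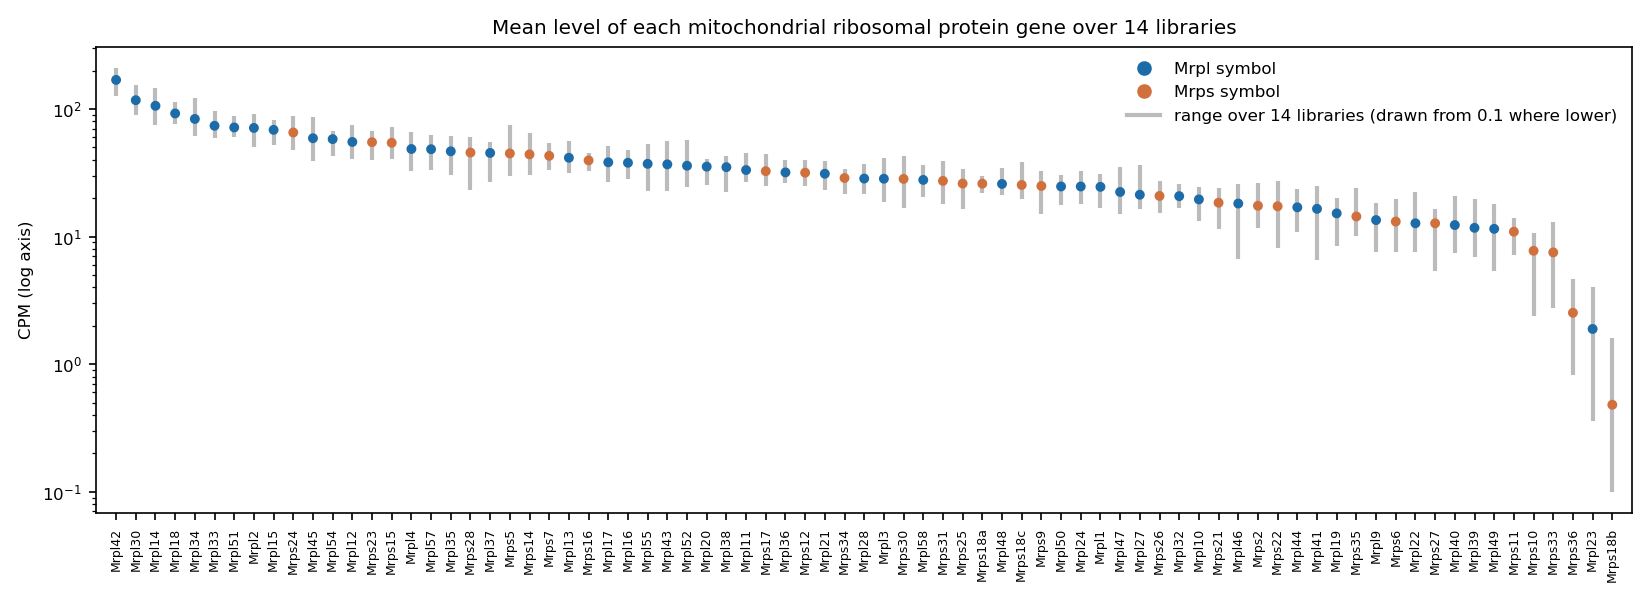
Mean level of each mitochondrial ribosomal protein gene over the 14 libraries in CPM (log axis), ordered by level, with the range over libraries as a grey bar and the symbol type as colour. Mrpl42 stands highest at 169 CPM, most genes lie between 10 and 100 CPM, the untested Mrps18b is lowest at 0.480 CPM, and Mrpl53, with no read, is not drawn.

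The filter removed 2 members. Mrpl53 had no read in any of the 14 libraries, and a count of 0 allows up to 3 reads, which is 0.386 to 0.903 CPM depending on the library. Mrps18b had 38 reads in all and 0 reads in 4 libraries. These limits cover counting error only, and not reads lost to an overlapping gene. Exons of Mrpl53 overlap Gm42688 on the same strand, and exons of Mrps18b overlap Gm16279 on the opposite strand. How reads in such overlaps were assigned is not given.

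Several members have roles beyond, or apart from, a structural place in the ribosome. Mrpl12 forms the stalk that binds translation factors and also binds mitochondrial RNA polymerase, and Mrpl10 anchors it. Mrpl10 was at 18.3 ± 4.41 CPM in WT controls, 21.5 ± 3.60 in WT runners, 20.3 ± 4.67 in FLExDUX4 controls and 18.1 ± 2.96 in FLExDUX4 runners. Mrps12, at the decoding centre, was at 29.6 ± 2.82, 33.7 ± 4.63, 30.1 ± 5.97 and 32.5 ± 4.37 CPM in the same order of groups. For both genes the group means lay no further apart than the largest SD within a group.

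Mrpl58 is a peptidyl-tRNA hydrolase built into the large subunit, and its mean was 28.5 ± 3.73 CPM in WT controls, 32.6 ± 4.47 in WT runners, 23.6 ± 2.72 in FLExDUX4 controls and 25.8 ± 2.34 in FLExDUX4 runners. Mrpl44, related to ribonuclease III, stayed between 16.5 and 17.6 CPM in the 4 group means. Mrps27, a pentatricopeptide repeat protein, ranged from 11.7 to 13.7 CPM. Neither Mrpl44 nor Mrps27 had group means further apart than the largest SD within a group.

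Mrpl41 was at 14.7 ± 3.61, 21.1 ± 4.30, 13.5 ± 6.02 and 15.6 ± 6.58 CPM in WT controls, WT runners, FLExDUX4 controls and FLExDUX4 runners. The related proteins Mrps18a, which sits in the large subunit, and Mrps18c were both just below the members' median, with group means of 24.1 to 27.6 CPM and 22.7 to 28 CPM. Mrps30, also a large subunit protein despite its symbol, was at 25.3 ± 6.75, 30.1 ± 5.30, 22.8 ± 6.69 and 33 ± 10.7 CPM. Mrps36, now known as a component of the α-ketoglutarate dehydrogenase complex, was the second lowest of the tested members, at 1.76 to 3.04 CPM.

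Running in WT mice gave slightly higher levels across many members and a call for 1 of them. The summed level was 2641 ± 53.4 CPM in WT controls (2598, 2625 and 2701 in the 3 mice) and 3033 ± 256 CPM in WT runners (2903, 2818, 3014 and 3398 in the 4 mice), so the groups did not overlap. Of the 76 tested members, 57 had a log2 difference above 0, against 51.3% of all tested genes, and the median was 0.18 log2 (all tested genes 0.01). At an adjusted p under 0.05 by edgeR's quasi-likelihood test, 1 member of 76 was called, in the higher direction, against 0.496% of all tested genes (0.397% higher and 0.0992% lower; 10.7% had an unadjusted p under 0.05 in either direction). With library sizes from spike-ins, 17 members and 604 genes in all were called, and the medians were 0.55 log2 for members and 0.37 for all tested genes. An unadjusted p under 0.05 was reached by 13 members in the higher direction (6.3% of all genes) and by 0 in the lower direction (4.37% of all genes). The runners and controls did not overlap for 12 members with higher runners (5.74% of all genes) and for 0 with lower runners (4.56%).

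The called member was Mrpl4 (ENSMUSG00000003299, chr9:21002738-21008839, plus strand), the counterpart of bacterial uL4, which reaches into the peptide exit tunnel. It was at 36.4, 37.6 and 32.5 CPM in the WT controls and at 62.1, 55.9, 56.8 and 66.5 CPM in the WT runners. Every WT runner lay above every WT control, and the difference was 1.70-fold (0.76 ± 0.18 log2 ± SE, edgeR adjusted p = 0.0411). The call is marginal: it was lost in limma-voom (adjusted p = 0.0623) and in 9 of the 14 fits that left out 1 mouse (adjusted p 0.0537 to 0.185). Those 9 were the fits without WT control 1, 2 or 3, WT runner 1 or 4, FLExDUX4 control 1 or 2, or FLExDUX4 runner 1 or 3, and the log2 difference in the 14 fits stayed between 0.71 and 0.81.

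Mrpl34 (ENSMUSG00000034880, chr8:71464959-71465747, plus strand), the counterpart of bacterial bL34, was at 61.8, 65.0 and 63.2 CPM in the WT controls and at 87.3, 91.1, 92.4 and 122 CPM in the WT runners. The groups did not overlap, with WT runner 4 the highest, and the log2 difference of 0.63 ± 0.16 had an edgeR adjusted p of 0.0604. DESeq2 (adjusted p = 0.0135), the fit with no filter (0.0237) and the fits without WT runner 3, FLExDUX4 runner 2 or FLExDUX4 runner 4 (0.0324, 0.0416 and 0.0408) called it.

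Mrps33 (ENSMUSG00000029918, chr6:39801804-39810988, minus strand), a small subunit protein specific to mitochondria, was at 2.73, 5.40 and 3.61 CPM in the WT controls and at 8.91, 9.23, 10.8 and 12.9 CPM in the WT runners. These levels rest on 12 to 25 reads in a control and 45 to 73 reads in a runner. The log2 difference was the largest among the members at 1.41 ± 0.37, and its edgeR adjusted p was 0.0646.

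Mrpl12 (ENSMUSG00000039640, chr11:120484613-120489065, plus strand) was at 42.7, 45.6 and 50.8 CPM in the WT controls and 69.1, 60.4, 60.3 and 75.6 CPM in the WT runners. The groups did not overlap, but the log2 difference of 0.52 ± 0.18 did not pass (edgeR adjusted p = 0.222). Mrpl47 (ENSMUSG00000037531, chr3:32725397-32737605, minus strand), the counterpart of uL29 near the exit tunnel, was at 15.1, 19.7 and 18.7 CPM in the controls and 35.4, 30.7, 20.5 and 28.7 CPM in the runners. Its log2 difference was 0.70 ± 0.25 (edgeR adjusted p = 0.232), with WT runner 3 close to the controls.

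**Figure D2:**
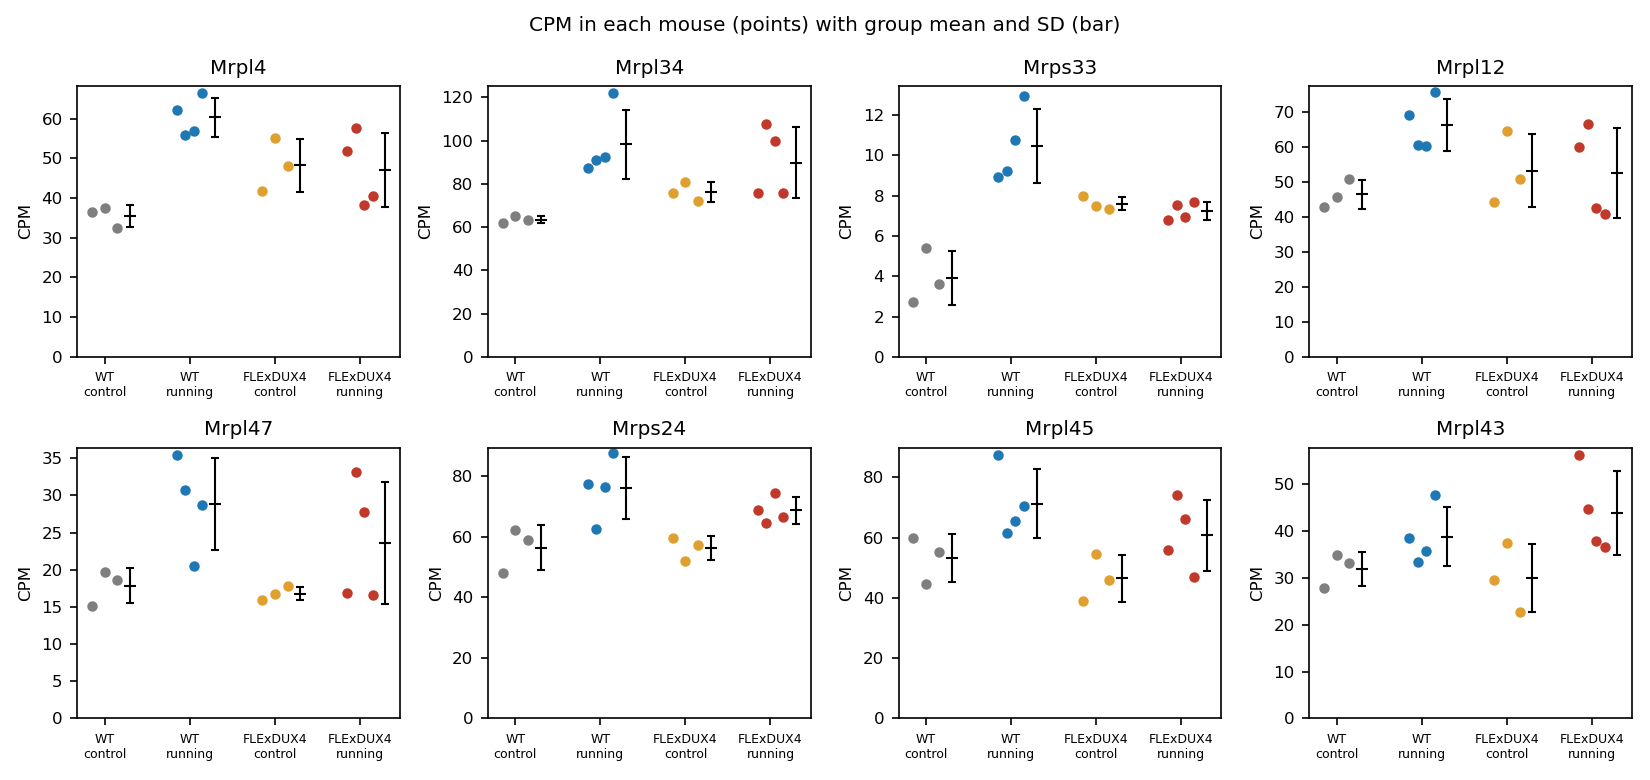
Level of 8 named members in each mouse, in CPM, with 1 point per mouse and a bar for the group mean and SD. Mrpl4, Mrpl34 and Mrps33 have all 4 WT runners above all 3 WT controls, and their FLExDUX4 runners overlap the FLExDUX4 controls. These genes were picked by their small p-values in WT mice.

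Running in FLExDUX4 mice gave no called member. The summed level was 2577 ± 175 CPM in the FLExDUX4 controls (2438, 2774 and 2520) and 2842 ± 244 CPM in the FLExDUX4 runners (2898, 3149, 2749 and 2573), and the groups overlapped. The log2 difference was above 0 for 53 of 76 members (51.1% of all tested genes), with a median of 0.11 log2 against 0.01 for all tested genes. By edgeR, 0 of 76 members were called, as were 0% of all tested genes (6.66% had an unadjusted p under 0.05 in either direction), and DESeq2 and limma-voom also called 0 members. An unadjusted p under 0.05 was reached by 5 members in the higher direction (3.61% of all genes) and by 0 in the lower direction (3.05%). The groups did not overlap for 6 members with higher runners (3.72% of all genes) and 0 with lower runners (3.45%). The median moved with single mice, between 0.035 log2 without FLExDUX4 runner 2 and 0.21 log2 without FLExDUX4 control 2, and was 0.18 log2 without FLExDUX4 runner 4.

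The smallest p-values were those of 5 members, none of them called. Mrpl43 (ENSMUSG00000025208, chr19:45004829-45006442, minus strand), a large subunit protein specific to mitochondria, was at 29.6, 37.4 and 22.8 CPM in FLExDUX4 controls and 56.2, 44.7, 37.9 and 36.6 CPM in FLExDUX4 runners. FLExDUX4 runner 4 lay below the highest control, and the log2 difference was 0.56 ± 0.20 (edgeR adjusted p = 0.6). Mrpl35 was at 30.2, 45.9 and 38.1 CPM in the controls and 54.0, 61.9, 50.6 and 43.2 CPM in the runners (0.46 ± 0.19, edgeR adjusted p = 0.71).

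Mrps21, the counterpart of bacterial bS21, was at 11.5, 14.7 and 15.7 CPM in FLExDUX4 controls and at 21.2, 21.5, 16.9 and 23.9 CPM in FLExDUX4 runners, with no overlap (0.58 ± 0.25, edgeR adjusted p = 0.71). Mrps30 had a log2 difference of 0.51 ± 0.24 and Mrpl45 of 0.38 ± 0.18, each with an edgeR adjusted p of 0.728. The 3 members with the smallest p-values in WT mice had smaller values here: Mrpl34 0.23 ± 0.16, Mrpl4 -0.04 ± 0.17 and Mrps33 -0.06 ± 0.34, with edgeR adjusted p-values of 0.841, 0.987 and 0.991. Because they were picked by their WT values, smaller values in other mice can follow from that choice alone. Mrpl4 was at 41.7, 55.1 and 48.0 CPM in FLExDUX4 controls and 51.9, 57.6, 38.2 and 40.5 CPM in FLExDUX4 runners, so those groups overlapped.

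Averaged over both genotypes, running gave a log2 difference above 0 for 62 of 76 members (51.5% of all tested genes), with a median of 0.14 log2 against 0.01 for all tested genes. None of the 76 was called by edgeR, against 0.857% of all tested genes (0.55% higher and 0.307% lower, and 12% with an unadjusted p under 0.05), and an unadjusted p under 0.05 was reached by 14 members in the higher direction (6.86% of all genes) and by 0 in the lower direction (5.11%). DESeq2 called 2 members, Mrpl34 (adjusted p = 0.0174) and Mrps24 (0.0426), among 273 genes it called in all, and limma-voom called 0 members among 70 genes. By symbol, 41 of 48 Mrpl members and 21 of 28 Mrps members were above 0, with medians of 0.14 and 0.13 log2. By the grouping used here, 39 of 46 members with a bacterial counterpart were above 0 (median 0.15). For those grouped as specific to mitochondria it was 23 of 30 (median 0.14).

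The 5 smallest p-values were those of Mrpl34 (0.43 ± 0.11, edgeR adjusted p = 0.0547), Mrpl47 (0.58 ± 0.18, 0.105), Mrps24 (0.36 ± 0.11, 0.111), Mrpl45 (0.40 ± 0.13, 0.12) and Mrpl43 (0.42 ± 0.14, 0.147). Single mice decided whether some of them passed: without FLExDUX4 runner 4, edgeR called Mrpl34, Mrpl47 and Mrpl45 (adjusted p 0.0212, 0.0380 and 0.0442), without WT runner 3 it called Mrpl34 and Mrpl47 (0.0340 and 0.0451), and without WT runner 2 it called Mrpl34 (0.0468). Mrps24 (ENSMUSG00000020477, chr11:5703983-5715680, minus strand), the counterpart of uS3 at the mRNA entry, was at 48.2, 62.2 and 59 CPM in WT controls and 77.6, 62.7, 76.5 and 87.6 CPM in WT runners. In FLExDUX4 mice it was at 59.5, 51.9 and 57.2 CPM in controls and 69.0, 64.6, 74.7 and 66.7 CPM in runners, so runners lay above controls in both genotypes. Mrpl45 (ENSMUSG00000018882, chr11:97315716-97329920, plus strand), which lies near the tunnel exit at the inner membrane, was the 1 member with an unadjusted p under 0.05 in each genotype. Its levels were 59.9, 44.5 and 55.1 CPM in WT controls and 87.5, 61.6, 65.6 and 70.4 CPM in WT runners, then 39.0, 54.6 and 46.1 CPM in FLExDUX4 controls and 55.8, 74.0, 66.2 and 46.9 CPM in FLExDUX4 runners. The groups did not overlap in WT mice and overlapped in FLExDUX4 mice.

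Also among the 5 highest averaged differences were Mrps33 (0.67 ± 0.25, edgeR adjusted p = 0.209) and Mrpl9 (0.47 ± 0.21, 0.336). Mrps36 followed at 0.44 ± 0.47, on 3 to 25 reads per mouse. The lowest were Mrpl23 (-0.50 ± 0.59), Mrps10 (-0.42 ± 0.30), Mrpl22 (-0.28 ± 0.22), Mrpl49 (-0.24 ± 0.23) and Mrps34 (-0.15 ± 0.14), none with an unadjusted p under 0.05. Mrpl23, with 2 to 19 reads per mouse, is also the lowest tested member by level. Of the tested members with a promoter entry, 12 of the 17 with the ETS core and 42 of the 50 without it had an averaged difference above 0, with medians of 0.090 and 0.15 log2. For the NRF1 core the counts were 6 of 7 with it and 48 of 60 without it, with medians of 0.078 and 0.14 log2. These splits rest on exact letters, and the NRF1 core was chosen after the matches were seen. Several members counted as without it hold the near match gcgcacg, among them Mrpl28, Mrpl30, Mrpl44 and Mrpl45. Mrps16 and Mrpl48 hold it on the other strand (cgtgcgc). The splits therefore cannot show whether a site for NRF1 goes with the running difference.

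The 2 running comparisons share no mice. Both differences were above 0 for 40 of the 76 members (52.6%), against 29.3% of all tested genes, 92.5% of nuclear genes for the respiratory complexes and ATP synthase and 46.8% of cytosolic ribosomal protein genes. Most members were above 0 in each genotype taken alone, so such a share can arise without agreement gene by gene. Both were below 0 for 6 members, 17 were above 0 in WT alone and 13 in FLExDUX4 alone. Across members, which are not independent replicates, the differences in the 2 genotypes had a Pearson r of 0.11 and a Spearman rho of 0.08 (all tested genes 0.15 and 0.16). A typical member's difference had an SE of 0.21 log2 in either genotype, above the median differences of 0.18 and 0.11.

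**Figure D3:**
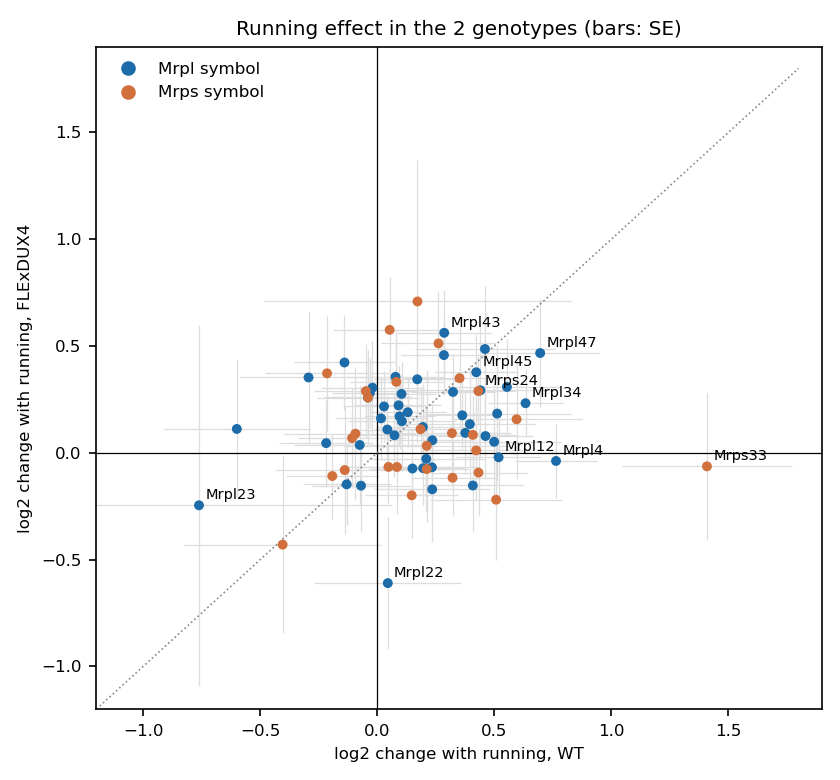
Log2 difference between runners and controls in FLExDUX4 mice against that in WT mice, 1 point per tested member with SE bars and a dotted line of equality. 40 of 76 members lie above 0 on both axes, and Mrpl4 and Mrps33 lie far to the right with FLExDUX4 values near 0. Both genes were picked by their small p-values in WT mice.

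Other genes of mitochondrial protein synthesis are given by their counts in the averaged running comparison. Of 6 mitoribosomal proteins under other symbols, 4 were above 0 and 0 were called, with a median of 0.16 log2; Ptcd3, a small subunit protein, had 0.67 ± 0.22 (edgeR adjusted p = 0.126). Of 14 translation factors 10 were above 0 (median 0.13), and of 8 genes for mitochondrial transcription and mRNA stability 6 were above 0 (median 0.17), with 0 called in either list. Polrmt, the mitochondrial RNA polymerase, had 0.59 ± 0.24 (edgeR adjusted p = 0.269). The 26 genes for ribosome assembly and rRNA modification were split, with 12 above 0 and a median of -0.02, and so were the 17 mitochondrial aminoacyl-tRNA synthetases, with 8 above 0 and a median of -0.03. The 21 import genes had 12 above 0 and a median of 0.03.

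RNA levels of mitochondrially encoded genes and of nuclear genes for the respiratory chain had larger differences. No protein was measured. All 10 tested mitochondrially encoded genes were above 0 (median 0.41 log2), and mt-Co1, the catalytic subunit of cytochrome c oxidase, was called (0.49 ± 0.12, edgeR adjusted p = 0.0401). Of 80 tested nuclear genes for respiratory complexes or the ATP synthase, 80 were above 0, 12 rose at an adjusted p under 0.05 and the median was 0.34 log2. Atp5g1, which encodes the c subunit of ATP synthase, rose by 0.67 ± 0.12 log2 (edgeR adjusted p = 0.00773). The mitochondrial ribosomal proteins, at a median of 0.14 log2, lay between these genes and the 79 cytosolic ribosomal proteins, of which 54 were above 0 with a median of 0.06 log2. No test of the difference between lists was made.

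**Figure D4:**
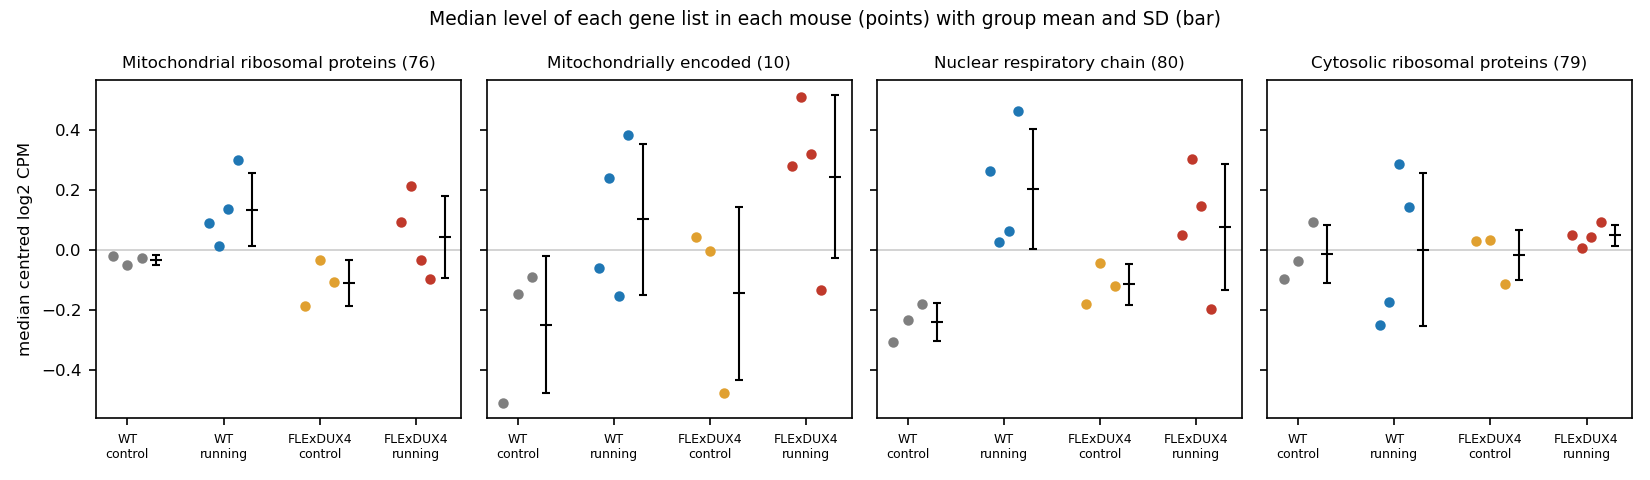
Median centred log2 CPM of 4 gene lists (mitochondrial ribosomal proteins, mitochondrially encoded genes, nuclear respiratory chain, cytosolic ribosomal proteins), with 1 point per mouse and a bar for the mean and SD of each group. For the mitochondrial ribosomal proteins WT runner 4 is highest, at 0.30, and FLExDUX4 runners overlap FLExDUX4 controls.

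The members' median in each mouse, centred on the gene's mean over all mice, was -0.02, -0.05 and -0.03 log2 in WT controls and 0.09, 0.01, 0.14 and 0.30 in WT runners. It was -0.19, -0.03 and -0.11 in FLExDUX4 controls and 0.09, 0.21, -0.03 and -0.10 in FLExDUX4 runners. WT runner 4 and FLExDUX4 runner 2 were the highest mice, and they were also the highest for the respiratory chain list, at 0.46 and 0.31. FLExDUX4 runner 4 lay at -0.10 for the members and -0.20 for the respiratory chain.

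Markers of fibre type and of other cells are given beside these values, most of them uncalled. The 7 slow or oxidative fibre genes summed to 408 to 460 CPM in WT controls, 1387 to 6511 in WT runners, 1294 to 2105 in FLExDUX4 controls and 845 to 5949 in FLExDUX4 runners, and Tnni1 and Tnnc1 were at 0 in 1 library each. The 5 endothelial markers summed to 83.1 to 90.1, 140 to 218, 106 to 116 and 86.1 to 175 CPM in the same order, with none at 0 in any library. The 5 erythroid markers summed to 441 to 955, 1134 to 1840, 672 to 990 and 478 to 1743 CPM. The 7 skeletal muscle markers include the fast gene Myh4, so their sum is not a measure of muscle content apart from fibre type. It was 132880 ± 1210 CPM in WT controls and 98843 ± 16537 in WT runners, with no overlap. In FLExDUX4 controls it was 122124 ± 6545 CPM and in FLExDUX4 runners 106322 ± 14973 CPM, with overlap. For running averaged over genotypes, edgeR called 1 of the 5 endothelial genes and 0 of the slow or oxidative, erythroid and muscle genes. All 7 slow or oxidative, 5 endothelial and 5 erythroid genes had averaged differences above 0, and 0 of the 7 muscle genes did. Mitochondrially encoded reads took 24% of gene reads in WT controls, 31.8% in WT runners, 26.2% in FLExDUX4 controls and 33.2% in FLExDUX4 runners. A fit without the mitochondrially encoded genes and Gm42418 left the number of called members unchanged for running in WT mice and averaged over genotypes. The part of these markers and reads in the members' differences was otherwise not tested.

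The genotypes were compared in the controls and in the runners. In controls, 32 of 76 members were above 0 in FLExDUX4 relative to WT (50.3% of all tested genes), with a median of -0.07 log2. By edgeR 0 were called, as were 0% of all tested genes, and an unadjusted p under 0.05 was reached by 3 members in the higher direction (2.81% of all genes) and 1 in the lower (2.18%). DESeq2 and limma-voom called 0 members. The groups did not overlap for 5 members with higher FLExDUX4 controls (5.93% of all genes) and 6 with lower ones (5.47%), shares close to those of all genes. Among members grouped here as specific to mitochondria 7 of 30 were above 0 (median -0.11 log2). Among those grouped with a bacterial counterpart it was 25 of 46 (median 0.037). Without FLExDUX4 control 1 the median of all members was -0.015 log2, without FLExDUX4 control 3 it was -0.021, and without WT control 1, 2 or 3 it was -0.042, -0.038 or -0.044. With library sizes from spike-ins it was 0.25 log2, where the median of all tested genes was 0.31.

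Mrpl40, a large subunit protein specific to mitochondria, was at 18.5, 14 and 15.9 CPM in WT controls and 9.60, 7.48 and 9.13 CPM in FLExDUX4 controls (-0.88 ± 0.32, edgeR adjusted p = 0.969). Mrps26 went the other way, at 17.5, 15.8 and 17.1 CPM in WT controls and 22.8, 27.2 and 24.8 CPM in FLExDUX4 controls (0.57 ± 0.24, 0.969). Mrps33 (0.94 ± 0.39) and Mrpl4 (0.44 ± 0.19) were higher in the FLExDUX4 controls with the same adjusted p, and Mrpl49 had -0.66 ± 0.34 (0.972). The Mrps33 and Mrpl4 differences use the same WT controls as the running comparison in WT mice, and are not a separate piece of evidence.

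In runners, 22 of 76 members were above 0 in FLExDUX4 relative to WT (48.8% of all tested genes), with a median of -0.08 log2. That median was -0.033 without WT runner 4, -0.049 without FLExDUX4 runner 4 and -0.15 without FLExDUX4 runner 2. None was called by edgeR (0% of all genes, with 3.16% at an unadjusted p under 0.05 in either direction), DESeq2 or limma-voom. An unadjusted p under 0.05 was reached by 1 member in the higher direction (1.59% of all genes) and 3 in the lower (1.57%). FLExDUX4 runners lay wholly below WT runners for Mrps6 and Mrps33, 2 of 76 members (1.15% of all genes), and wholly above for 0 (1.36%). Mrps6, the counterpart of bacterial bS6, was at 16.4, 14.2, 15.8 and 19.6 CPM in WT runners and 12.6, 10.8, 8.73 and 12 CPM in FLExDUX4 runners (-0.57 ± 0.26, edgeR adjusted p = 0.999). Mrps26 was again higher in FLExDUX4, by 0.42 ± 0.21 log2 with the same adjusted p, and its 4 FLExDUX4 runners, at 22.5 to 26.4 CPM, overlapped only with WT runner 1 at 23.4 CPM.

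**Figure D5:**
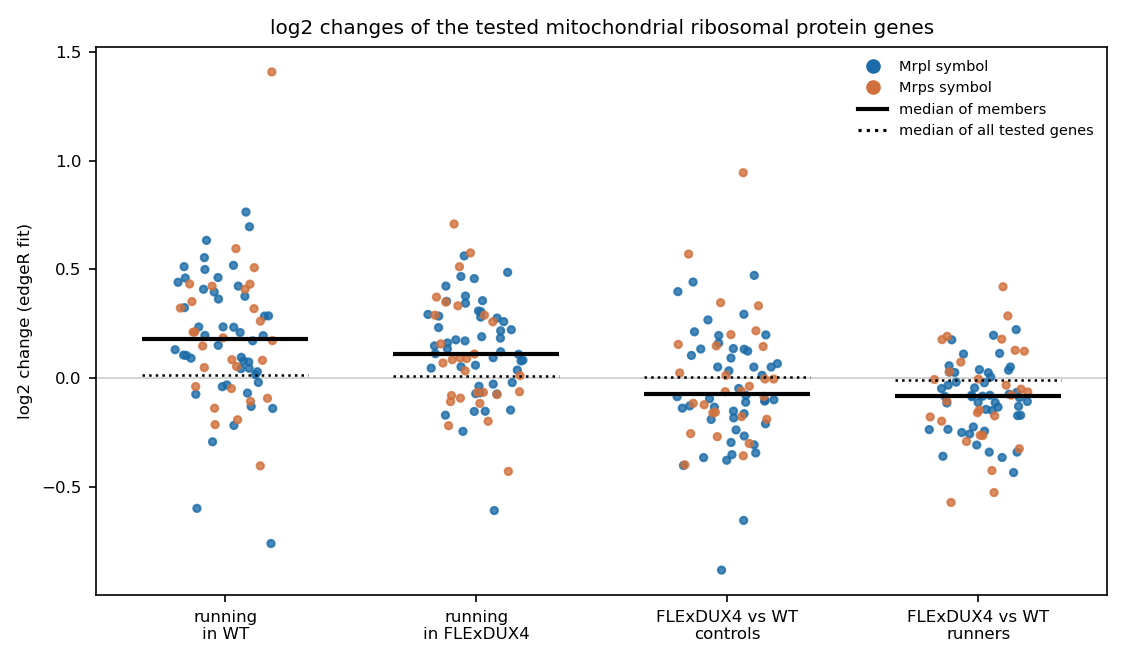
Log2 difference of each tested member in 4 comparisons (running in WT, running in FLExDUX4, FLExDUX4 against WT in controls and in runners), 1 point per gene, with the members' median as a solid line and the median of all tested genes as a dotted line. The members' medians are 0.18, 0.11, -0.07 and -0.08 log2, and the spread of single genes around them is wider than these medians.

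Whether running acted differently in the genotypes was tested by the interaction, the running difference in FLExDUX4 minus that in WT. The median over members was -0.04 log2 (all tested genes -0.01), with 34 of 76 above 0 (49.4% of all tested genes). Leaving out 1 mouse gave medians from -0.013 (without FLExDUX4 control 2) to -0.10 (without WT runner 2), and 8 of the 14 such fits moved it by over 1.5 times: those without WT control 2 or 3, WT runner 2 or 3, FLExDUX4 control 2 or 3, or FLExDUX4 runner 1 or 2. By edgeR 0 members were called, as were 0% of all tested genes, and DESeq2 and limma-voom called 0. In either direction 4.84% of all genes had an unadjusted p under 0.05. An unadjusted p under 0.05 was reached by 0 members in the higher direction (2.18% of all genes) and 3 in the lower (2.66%). These 3 were Mrpl4 (-0.80 ± 0.25), Mrps33 (-1.47 ± 0.50) and Mrpl12 (-0.54 ± 0.26), each with an edgeR adjusted p of 0.954. So the call of Mrpl4 in WT mice and its absence in FLExDUX4 mice were not shown to differ.

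In the authors' deposited table of group comparisons, 4 of the 45 members with an adjusted p were under 0.05 between WT controls and WT runners, against 299 of 3021 genes. None of 74 members was under 0.05 between FLExDUX4 controls and FLExDUX4 runners, against 4 of 7532 genes. In each of the authors' deposited genotype comparisons none of 77 members was under 0.05, against 1 of 22687 genes.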

How the data were processed

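Per the submitters' processing notes, reads were handled with cutadapt 1.16, FastQC 0.11.7, STAR 2.5.3a and featureCounts 1.6.2 (Subread), and tested with DESeq2. The notes list GRCm38 and GRCh38 as builds. Which annotation release, strand setting and handling of multiply aligned reads were used is not given in the sources used here. The authors deposited raw counts per gene and mouse, together with their own log2 fold changes and adjusted p-values per group comparison, which are quoted only where named. From the counts, spike-in rows were set aside, genes were kept by edgeR's filterByExpr (minimum count 10), and library sizes were scaled by TMM.

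All 14 mice were fitted in edgeR 4.0.16 (R 4.3.3) with 1 mean per group, robust quasi-likelihood dispersion and contrasts for running in each genotype, running averaged over genotypes, genotype in controls, genotype in runners and the interaction. P-values were Benjamini-Hochberg adjusted over 11088 genes with a threshold of 0.05. SE is the log2 difference divided by the square root of F. The fit was also run on counts simulated with the spread estimated from these data, and that run is not used as support for any result here. Alternatives used DESeq2 1.42.0, limma 3.58.1 (voom), RLE scaling, other filters, spike-in library sizes, no mitochondrial genes, only the groups compared, and mice left out.

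Genes named are every called member or, with fewer than 5 called, the 5 with the smallest p in a comparison, the 5 highest and lowest by averaged difference and by level, untested members, and members picked for their roles. Members, lists, motifs and tests were chosen with earlier results of these data known. The NRF1 motif was first searched in a longer form and replaced by its 7-letter core after the matches were seen. No 2 mice of a group matched within sampling noise (lowest chi-square per degree of freedom 5.89). Depth of 3.32 to 7.77 reads per CPM limits members below 10 CPM.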

Additional observations from a re-analysis of the deposited data

Results flagged for a closer look

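Among 74 groups of 4 runners' values tested for a mouse standing apart (gap to the nearest mouse over the group's range, Dixon's 95% value), 4 were marked, and chance marks about 1 in 20. Mrpl34 was highest in WT runner 4, at 122.284 CPM against 87.3 to 92.4 CPM in the others. Mrps26 was highest in WT runner 1, at 23.4 CPM against 15.4 to 16.5 CPM. Mrpl9 was lowest in FLExDUX4 runner 2, at 8.61 CPM against 16.6 to 17.9 CPM. Mrpl22 was lowest in FLExDUX4 runner 4, at 7.55 CPM against 11.5 to 11.8 CPM.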

How the results depend on the processing

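No paired analysis was possible because the labels give the mice no shared replicate numbers and tie no mouse of one group to a mouse of another. Members called for running in WT mice numbered 1 in edgeR (of 55 genes called in all), 2 with DESeq2 (of 194), 0 with limma-voom (of 23), 2 with no filter (of 217), 17 with spike-in library sizes (of 604) and 0 to 2 when 1 mouse was left out (of 0 to 197). For running averaged over genotypes the counts were 0 (of 95), 2 with DESeq2 (of 273), 1 with no filter (of 291), 10 with spike-in library sizes (of 430) and 0 to 3 when 1 mouse was left out (of 17 to 286). Spike-in library sizes moved the median of all tested genes to 0.37 log2 for running in WT, 0.21 averaged, 0.31 for genotype in controls and -0.32 for the interaction. The members' medians there were 0.55, 0.34, 0.25 and -0.37 log2. Relative to all genes the members' median was 0.16 log2 as reported and 0.17 with spike-ins for running in WT, 0.13 in both for running averaged, -0.07 and -0.06 for genotype in controls, and -0.04 and -0.05 for the interaction. Differences that turned sign were all within 1 SE of 0 as reported except Mrps34: for running in FLExDUX4 mice, leaving out 1 mouse gave -0.15 to 0.0708 log2 for Mrpl4 and -0.15 to 0.15 for Mrpl12, above 0 without FLExDUX4 control 2, runner 3 or runner 4. For genotype in controls, Mrpl47 was 0.22 with spike-ins and -0.19 to 0.00266 with 1 mouse left out (above 0 without WT control 2), and Mrps6 was -0.0823 to 0.37 (below 0 without WT control 2). Mrps34 for running averaged was 0.0572 with spike-ins. The cause was not tested. Of 1379 single-member values under alternatives, 1334 kept their direction and side of the threshold.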
